A study of Mus musculus with 40 samples.

Results

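Cells make ribosomes in the nucleolus, where RNA polymerase I copies the ribosomal DNA into a long precursor RNA. Small nucleolar ribonucleoproteins (snoRNPs) modify that RNA, the small subunit processome cuts and folds its 18S part, and separate sets of assembly factors build the 40S and 60S subunits before both leave the nucleus. Melanoma cells that divide quickly need many ribosomes, and many genes of the pathway are known targets of the transcription factor Myc, which binds the sequence CACGTG (the E-box).

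A list of 41 ribosome biogenesis and nucleolar genes was followed here through 40 arrays of mouse melanoma. Where several probe sets named a gene and no other, the one brightest on average across the arrays was read, and 17097 genes in all were read this way. By this rule 38 of the 41 genes were measured, and Gnl3, Mybbp1a and Tsr1, which had no probe set of their own, were not analysed here. For 5 genes (Fbl, Nop56, Gar1, Nhp2 and Rrs1) the probe set read is of a kind (_s_ or _x_) that may also match other transcripts. Gar1 and Nop56 had no other probe set. The mean over all arrays was above the background level of 4.47 (log2) for 36 genes. The exceptions were Ncl and Rrp12, whose values are therefore close to the background of the array. That level is the 95th percentile of the means of 78 olfactory and vomeronasal receptor genes.

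All samples derive from B16F10, a cutaneous melanoma line of the mouse. Cultured B16F10 cells were left untreated (4 arrays) or given OTX015 (4 arrays), a compound that keeps BET bromodomain proteins off acetylated histones. Tumours came from B16F10 cells injected under the skin of eight-week-old C57black6J mice, which have their own immune system. One experiment held 11 untreated tumours and 10 tumours of mice given OTX015 by mouth, and another held 5 untreated tumours and 6 tumours of mice given guadecitabine, an inhibitor of DNA methylation, into the abdomen. The series asks how such drugs reshape the melanoma and its surroundings. The labels give no dose, length of treatment or sex and name no sorting of cells, so a tumour array may hold RNA of host cells. Nothing in them ties a replicate to a culture or animal of its own, so p-values measure the spread between these samples only. In bulk samples, fewer cells of a type and less RNA per cell cannot be told apart.

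The arrays matched their labelled cell type where it could be checked. The mean of 11 melanocyte markers lay between 10.1 and 11.1 on all 40 arrays, and that of 14 macrophage markers between 3.45 and 3.58 in the cultured cells and between 4.13 and 7.56 in tumours. Myc, the E-box binding factor, fell by 1.24 (log2) in OTX015-treated cells, with an adjusted p of 4.06e-07 in limma. Hexim1, an inhibitor of transcription elongation that serves as a marker of BET inhibition, rose by 2.25. In tumours of OTX015-treated mice, neither Hexim1 (0.12, adjusted p = 0.38) nor Myc (-0.14, adjusted p = 0.67) passed the limma test. The values of all OTX015-treated tumours were deposited at a lower level, with a mean over all probe sets of 4.35 to 4.39 against 4.55 to 4.60 in their controls. Results on these tumours therefore come from quantile-normalized values, which give every fitted array the same distribution. On 5 tumour arrays the standard deviation over all probe sets lay under a chosen limit of 1.9. No gap marks that limit, with guadecitabine replicate 6 at 1.891 below it and OTX015-treated tumour replicate 3 at 1.904 above it. The arrays under the limit, called of low spread below, were untreated replicates 9 and 11 and treated replicate 4 of the OTX015 experiment, and guadecitabine replicates 3 and 6. Counts without them are given beside each comparison they enter.

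In cultured cells, OTX015 lowered most of the ribosome biogenesis genes. Of the 38 genes, 23 fell and 4 rose, while 21.8% of all genes measured fell and 17.0% rose. One of the 4, Ncl, lies below the background level. A gene was called at a Benjamini-Hochberg adjusted p under 0.05 over all 17097 genes, here and below. The median log2 difference (treated minus control) was -0.43, against -0.0018 over all genes. The largest falls were in Ltv1 (2.89-fold), Gar1 (2.79-fold), Rrs1 (2.43-fold) and Wdr12 (2.42-fold). The mean of the 38 genes per array lay between 7.13 and 7.19 in the 4 controls and between 6.68 and 6.74 in the 4 treated cultures, so these group values did not overlap.

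**Figure D1:**
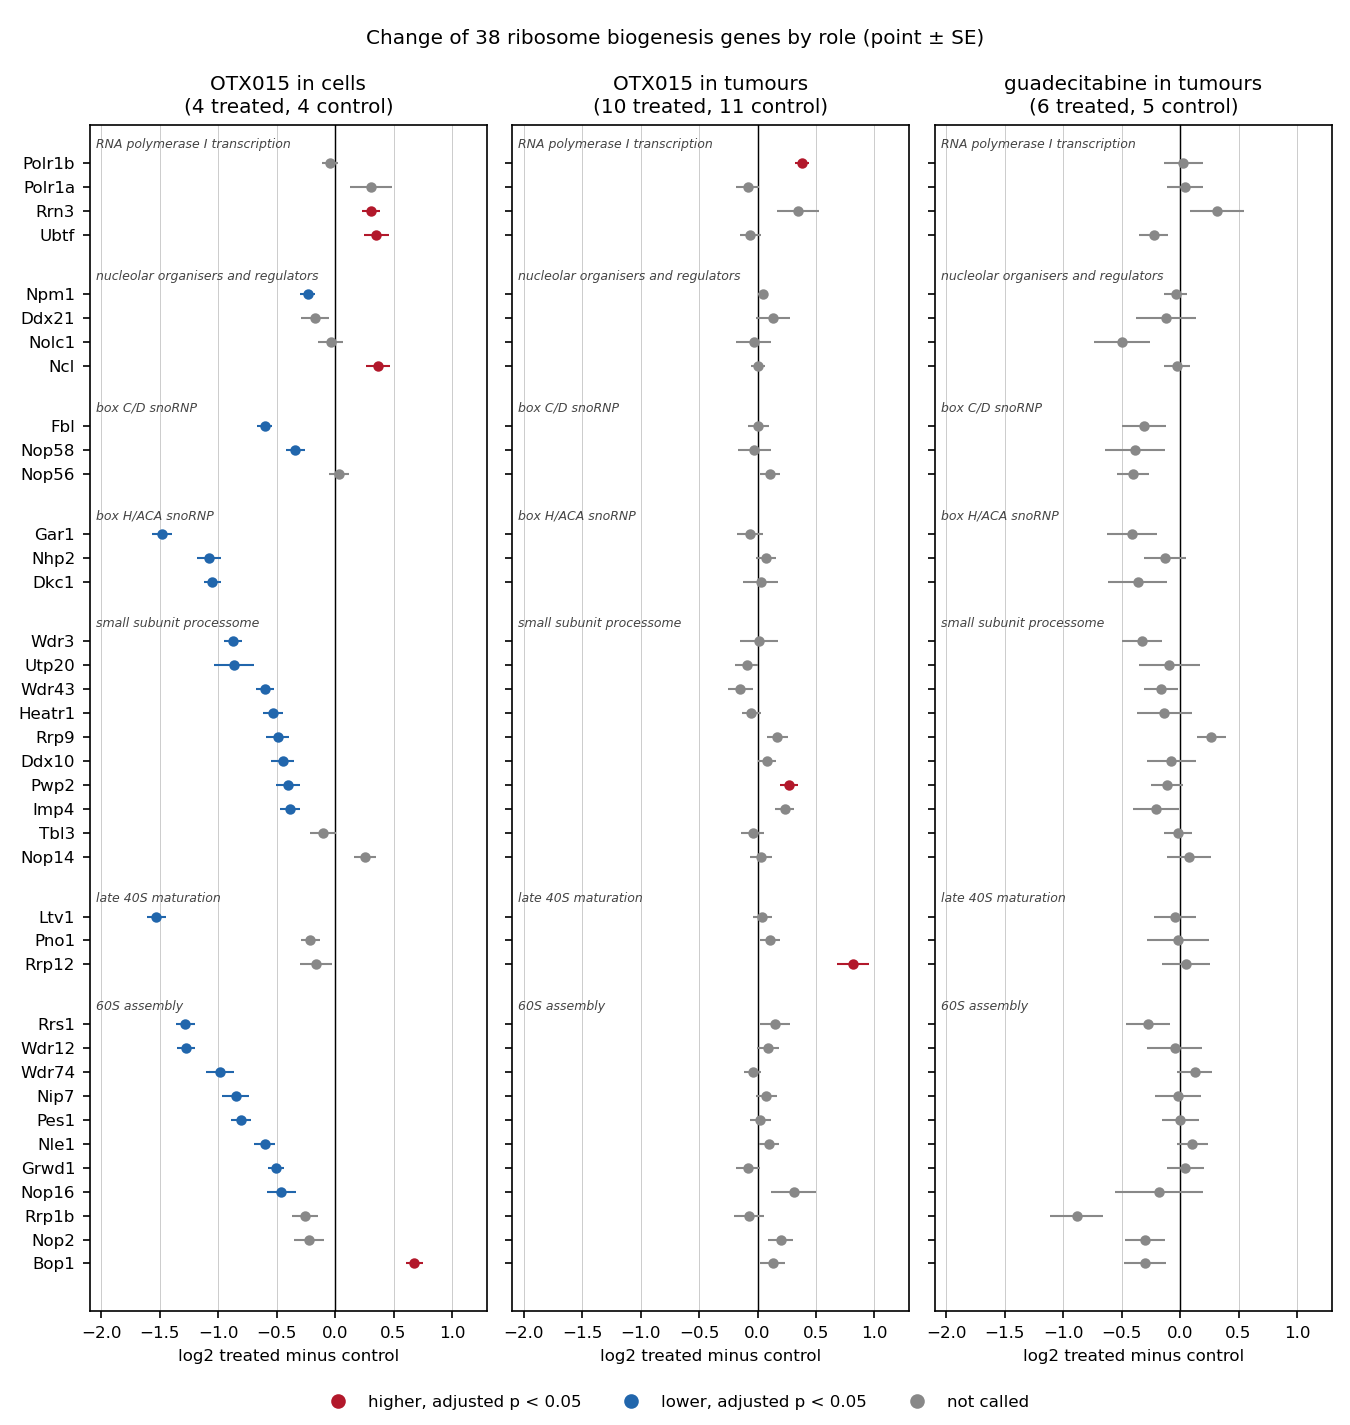
Log2 difference between treated and control arrays (horizontal axis) of the 38 measured genes, grouped by role, for OTX015 in cells, OTX015 in tumours and guadecitabine in tumours. Points are differences and bars are standard errors from limma, with called genes coloured: 23 genes lie lower and 4 higher in cells, 3 higher in OTX015 tumours and none in guadecitabine tumours. Ncl and Rrp12 lie below the background level.

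None of the 4 listed genes of RNA polymerase I transcription fell. Ubtf, which opens the ribosomal DNA for polymerase I, measured 7.37, 7.39, 7.11 and 7.24 in the control cells and 7.91, 7.44, 7.48 and 7.68 in the treated cells. The difference was 0.35 ± 0.11 (SE, n = 4 and 4), with an adjusted p of 0.020 in limma. Every treated value was above every control value, by a narrow margin. Ubtf lost its call without control replicate 4 (adjusted p = 0.0526, limma), without treated replicate 4 (adjusted p = 0.0557, limma), and when all its probe sets were averaged (difference 0.16). The other probe set of Ubtf lies below the background level, with a mean of 4.17 in control cells.

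Rrn3, which joins polymerase I to its start site, measured 6.77, 6.86, 6.64 and 6.65 in control and 7.15, 6.96, 7.09 and 6.95 in treated cells. It rose by 0.31 ± 0.08 with an adjusted p of 0.0073 in limma, and its groups did not overlap. When all 6 groups were fitted together, the rise of Rrn3 no longer passed (adjusted p = 0.42, limma). The largest subunit gene, Polr1a (difference 0.31, adjusted p = 0.22 in limma), and the next largest, Polr1b (-0.04, adjusted p = 0.70), did not pass.

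Among other polymerase I subunits and factors, 6 of 12 genes fell and 1 rose. Taf1b, part of the factor that selects the ribosomal promoter, went from 7.17 to 5.58, a fall of 1.59 on the log2 scale. Polr2l, a subunit that all 3 nuclear RNA polymerases share, went the other way, from 9.13 to 10.6. The shared subunit gene Polr2e fell by 1.03.

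Of the nucleolar organisers, Npm1 (nucleophosmin), an abundant chaperone of the nucleolus, fell by 0.23 ± 0.07 from a mean of 11.3 to 11.1, with an adjusted p of 0.013 in limma. Nolc1, a chaperone of snoRNPs (-0.04), and Ddx21, an RNA helicase (-0.17), did not pass. The next brightest probe set of Ddx21 differed by 0.63 in the other direction, so the readings of that gene disagree. The probe set of Ncl (nucleolin) was called higher, with an adjusted p of 0.010 in limma. Its 4 control values of 2.87, 2.86, 2.48 and 2.66 and its 4 treated values of 2.97, 3.18, 2.98 and 3.19 do not overlap. All of them lie below the background level, so no difference is given for Ncl.

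The box C/D snoRNP proteins, which guide 2′-O-methylation of the ribosomal RNA, moved unequally. The methyltransferase gene Fbl (fibrillarin) fell by 0.60 ± 0.07, from 8.69 to 8.09, with an adjusted p of 1.13e-05 in limma. Nop58, a core protein, fell by 0.34 ± 0.08. Its partner Nop56 differed by 0.03 ± 0.09 and did not pass (adjusted p = 0.84, limma), and its control (9.34 to 9.69) and treated (9.43 to 9.63) values overlapped.

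All 3 listed box H/ACA snoRNP genes fell by more than 1 on the log2 scale. These proteins guide the conversion of uridine to pseudouridine and also belong to telomerase. Gar1, a core protein, measured 8.11, 8.15, 7.88 and 7.92 in control and 6.50, 6.44, 6.49 and 6.71 in treated cells. Its level fell by 1.48 ± 0.09 (2.79-fold), with an adjusted p of 6.17e-08 in limma, and the lowest control lay more than 1 unit above the highest treated value.

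Nhp2, which binds the H/ACA RNA, measured 9.28, 9.38, 9.67 and 9.55 in control and 8.48, 8.18, 8.47 and 8.44 in treated cells, a fall of 1.08 ± 0.10. Dkc1 (dyskerin), the pseudouridine synthase, measured 8.31, 8.13, 8.39 and 8.32 in control and 7.24, 7.22, 7.29 and 7.18 in treated cells, a fall of 1.05 ± 0.07. Neither gene's groups overlapped. The next brightest probe sets of Nhp2 (-1.23) and Dkc1 (-0.97) moved the same way. Nop10, the remaining core H/ACA protein and no member of the list, rose by 0.95 with an adjusted p of 4.99e-06 in limma. Among the snoRNP assembly genes outside the list, 6 of 7 fell and Nop10 was the 1 that rose, with Ruvbl1, a helicase of the assembly machinery, down by 0.99.

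In the small subunit processome, 8 of 10 genes fell and none rose. Wdr3, a scaffold subunit, measured 8.17, 7.90, 8.04 and 7.87 in control and 7.06, 7.17, 7.10 and 7.15 in treated cells, a fall of 0.88 ± 0.08 without overlap. Utp20 fell by 0.87 ± 0.17, and its spread came from the controls, where 3 arrays lay between 6.87 and 7.02 and 1 at 6.09. The treated values of Utp20 lay between 5.85 and 5.90. Wdr43 and Heatr1, both of the subcomplex that binds the precursor first (UtpA), fell by 0.60 and 0.53. Rrp9, a protein of the U3 snoRNP, fell by 0.49 and Imp4, which helps pair U3 with the precursor, by 0.39. Ddx10, an RNA helicase, fell by 0.45.

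Pwp2, Wdr3 and Tbl3 encode scaffolds of 1 subcomplex of the processome (UtpB). Their differences were -0.40, -0.88 and -0.10, and that of Tbl3 did not pass (adjusted p = 0.55, limma). Nop14, which binds the growing 40S particle, differed by 0.25 in the opposite direction and missed the threshold (adjusted p = 0.052, limma) although its groups did not overlap. Among 37 further processome and 40S genes, 25 fell and 3 rose. Emg1, a methyltransferase of 18S ribosomal RNA, fell by 1.13 and Ddx52, an RNA helicase, by 1.13.

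The largest fall of the whole list was in late 40S maturation. Ltv1, which accompanies the pre-40S particle out of the nucleus, measured 7.30, 7.35, 7.37 and 7.18 in control and 5.81, 5.61, 5.81 and 5.86 in treated cells. Its level fell by 1.53 ± 0.08 (2.89-fold), with an adjusted p of 1.83e-08 in limma, and the groups lay more than 1 unit apart. Pno1, which holds the site where 18S ribosomal RNA is cut, had non-overlapping groups but missed the threshold (-0.21, adjusted p = 0.054, limma). Rrp12, an export factor with values below the background level, did not pass.

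Of the 11 genes of 60S assembly, 8 fell and 1 rose. Rrs1, which brings the 5S particle into the pre-60S, measured 9.25, 9.05, 9.002 and 9.01 in control and 7.88, 7.82, 7.65 and 7.83 in treated cells. It fell by 1.28 ± 0.08 (2.43-fold), with an adjusted p of 1.16e-07 in limma. Its next brightest probe set fell by 1.55.

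Wdr12, Pes1 and Bop1 form the PeBoW complex, which is needed to process the 60S precursor RNA, and they split by direction. Wdr12 measured 8.03, 8.11, 8.26 and 7.996 in control and 6.73, 6.87, 6.91 and 6.78 in treated cells, a fall of 1.28 ± 0.08. Pes1 fell by 0.81 ± 0.09, from 7.90 to 7.10. Bop1 rose by 0.68 ± 0.07 with an adjusted p of 1.01e-05 in limma. Its control values were 7.16, 7.25, 7.27 and 7.06 and its treated values 7.93, 7.88, 7.88 and 7.77, again with no overlap. Among the 38 genes, Bop1 was the only one called with a rise of at least 1.5-fold, against 1365 of all 17097 genes.

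Wdr74, a factor of early 60S particles, measured 7.31, 7.46, 7.73 and 7.42 in control and 6.42, 6.26, 6.82 and 6.47 in treated cells, a fall of 0.99 ± 0.12 without overlap. Nip7 fell by 0.85, Nle1, which helps release assembly factors, by 0.60, Grwd1, a chaperone of a ribosomal protein, by 0.51 and Nop16 by 0.46. In Nop16, 1 treated array at 5.75 lay below the other 3, which lay between 6.29 and 6.40. Nop2, which methylates the large ribosomal RNA (-0.23), and Rrp1b (-0.26) did not pass. Among 44 further 60S genes, 23 fell and 5 rose. Ebna1bp2, an early assembly factor and the gene with the smallest p of these, fell by 1.29.

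**Figure D2:**
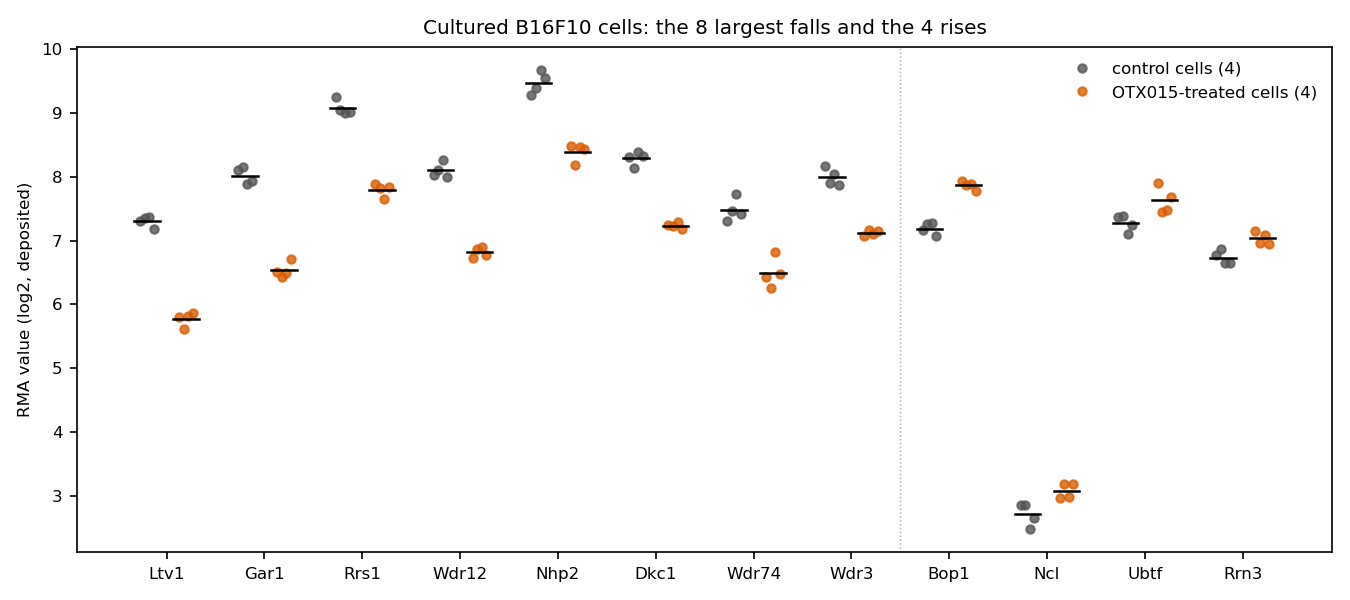
Deposited RMA value (log2, vertical axis) of the 8 genes with the largest falls and the 4 genes that rose in cultured B16F10 cells, with grey points for the 4 control and orange points for the 4 OTX015-treated arrays and black lines for means. Ltv1 falls by 1.53 and Bop1 rises by 0.68, and the Ncl probe set lies below the background level of 4.47. The groups do not overlap in any of the 12 genes. These genes were chosen by their change on the same arrays, so this is no separate evidence.

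Read together with the rest of the pathway, the listed genes did not stand alone. Of 109 other ribosome biogenesis genes, 67 fell and 10 rose with a median of -0.40, and of 65 ribosomal protein genes 40 fell and 2 rose with a median of -0.26. Exosome and trimming factors, which degrade and trim ribosomal RNA precursors, fell in 8 of 10 cases, with C1d, a cofactor of the nuclear exosome, down by 1.78. Subunits of RNA polymerase III and its factors, which make 5S ribosomal RNA, moved both ways, with 4 of 15 up and 5 down. Proliferation markers did not fall: 8 of 16 rose and none fell, and Mki67 rose by 0.60 (adjusted p = 0.039, limma). The 3 nuclear-retained RNAs Malat1, Neat1 and Kcnq1ot1 rose with the treatment, from a mean of 6.04 to 6.25 in control to 7.25 to 7.77 in treated cells. The part of this shift in the falls above was not tested. Of 19 members with another probe set, the next brightest was above background in 14 and moved the same way as the one used in 13, the exception being Ddx21.

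The E-box CACGTG was searched for in the promoters of the list, since Myc fell in the same cells. RefSeq windows from 250 bases before to 50 bases after the start (build GRCm38.p6) were at hand for 35 of the 41 genes, and none was at hand for Fbl, Bop1, Rrs1, Npm1, Rrp12 and Tbl3. CACGTG reads the same on both strands. It was present in 12 of the 35 genes (34.3%), against 8.09% of all 27025 genes with a window. Of the 32 that were also measured, 10 held it (31.2%), against 12.2% of the 7473 genes above background on the arrays. Another motif of growth genes, the ETS core CCGGAAG on either strand, which cannot share a base with CACGTG, was present in 14 of the 35 genes (40%), against 9.93% of all genes. Of the 32 measured ones 13 held it (40.6%), against 21.7% of the genes above background. The stretches around the E-box follow for the genes that were measured, with CACGTG in capitals, so that their flanks and positions can be compared. Each is written on the strand of its gene, and those after the start stop at the end of the window.
Ltv1, chr10:13193092-13193121, minus strand: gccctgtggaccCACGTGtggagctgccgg
Utp20, chr10:88826765-88826789, minus strand: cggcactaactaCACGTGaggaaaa
Pes1, chr11:3963965-3963994, plus strand: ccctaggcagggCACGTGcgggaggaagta
Nle1, chr11:82908355-82908384, minus strand: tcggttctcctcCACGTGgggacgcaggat
Wdr43, chr17:71616220-71616249, plus strand: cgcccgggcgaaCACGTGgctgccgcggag
Grwd1, chr7:45830740-45830767, minus strand: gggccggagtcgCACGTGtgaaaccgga
Imp4, chr1:34439696-34439725, plus strand: acggtcttagacCACGTGacatcccaaatc
Nop2, chr6:125131811-125131840, plus strand: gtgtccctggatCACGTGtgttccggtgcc
Pno1, chr11:17211540-17211564, minus strand: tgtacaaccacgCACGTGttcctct
Rrn3 (distal), chr16:13780472-13780501, plus strand: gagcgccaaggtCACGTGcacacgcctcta
Rrn3 (proximal), chr16:13780639-13780668, plus strand: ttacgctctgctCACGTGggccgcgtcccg

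In 7 of these 10 genes the first base of the E-box lay after the start, counted as 1, at base 29 in Ltv1, 38 in Utp20, 3 in Pes1, 24 in Nle1, 18 in Wdr43, 35 in Grwd1 and 38 in Pno1. In Imp4 it lay 121 bases before the start and in Nop2 60 bases before. Rrn3 held a pair of E-boxes, 215 and 48 bases before its start. The 250 bases before the start of Rrn3 (chr16:13780449-13780698, plus strand) are given whole because Rrn3 rose while the other called genes with an E-box fell.
Rrn3, promoter: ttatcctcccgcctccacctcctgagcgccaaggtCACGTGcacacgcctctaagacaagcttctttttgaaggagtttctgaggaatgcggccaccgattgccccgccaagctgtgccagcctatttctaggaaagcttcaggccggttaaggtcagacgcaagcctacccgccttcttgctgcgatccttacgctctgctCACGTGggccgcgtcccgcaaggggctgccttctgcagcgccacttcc

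Of the 10 measured genes with an E-box in the window, 7 fell in OTX015-treated cells (Ltv1, Utp20, Pes1, Nle1, Wdr43, Grwd1 and Imp4), Rrn3 rose, and Nop2 and Pno1 did not pass, with a median difference of -0.55. Of the 22 measured genes whose window held none, 13 fell and 2 rose, with a median of -0.43. Gar1, Wdr12, Nhp2 and Dkc1, which had some of the largest falls, were among the latter. A match describes these letters in this window only and is not a measured binding site.

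In tumours of OTX015-treated mice, the list did not fall. At an unadjusted p under 0.05 in limma, 4 of the 38 genes rose and 0 fell, against 2588 and 2342 of all 17097 genes. After adjustment 3 rose and 0 fell, while 8.67% of all genes rose and 7.49% fell. One of the 3, Rrp12, lies below the background level. The median log2 difference was 0.04, against 0.0053 over all genes. On the deposited values, which put every treated tumour lower, 1 gene rose and 8 fell, while 215 of all 17097 genes rose and 9230 fell. The median there was -0.17, against -0.21 over all genes. Relative to that shift of all genes, the list did not lie lower in either scaling.

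Polr1b, the gene of the next largest polymerase I subunit, was the clearest rise. Its quantile-normalized values ran from 4.96 over a median of 5.15 to 5.43 in 11 controls and from 5.37 over 5.57 to 5.70 in 10 treated tumours. The difference was 0.38 ± 0.06 (SE), with an adjusted p of 6.72e-05 in limma. In 9 of 10 treated tumours the value was above every control. On deposited values Polr1b differed by 0.14 and did not pass (adjusted p = 0.067, limma).

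Rrp12 ran from 2.72 over 3.58 to 3.90 in controls and from 3.68 over 4.36 to 4.73 in treated tumours. It was called higher, with an adjusted p of 0.00028 in limma, and 9 of 10 treated values were above every control. Both group means (3.503 and 4.32) lie below the background level of 4.47, so no difference is given. Pwp2, the processome scaffold, ran from 4.69 over 5.12 to 5.41 in controls and from 5.14 over 5.40 to 5.65 in treated tumours. Its difference of 0.27 ± 0.08 (adjusted p = 0.023, limma) passed neither on deposited values (0.02, adjusted p = 0.87) nor after centring each array on its median (adjusted p = 0.10).

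The remaining 35 genes did not pass. For some of them other probe sets read differently. Those of Grwd1 differed by 0.49 and 0.42, against -0.08 for the one used, and those of Nolc1 by 0.28 and 0.22, against -0.03. That of Ddx21 differed by -0.13, against 0.13. These other readings were not tested. The differences of the 3 H/ACA genes lay between -0.07 and 0.07, and those of Ltv1 and Rrs1 were 0.04 and 0.15. In the same tumours 10 of 14 macrophage markers fell, with a median of -1.08. The summed level of these markers, as a mean per array of deposited values, ran from 5.87 to 7.56 in controls and from 4.13 to 6.06 in treated tumours. Their part in the values of the list was not tested. Proliferation markers gave 0 calls of 16. Without the 3 arrays of low spread in this experiment, the list again gave 3 rises and 0 falls, with a median of 0.07.

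The effect of OTX015 differed between culture and tumour for most of the list. Tested as a difference of the 2 effects (tumours minus cells) on quantile-normalized values, 21 of 38 genes were higher and 3 lower, while 18.0% of all genes were higher and 14.6% lower. The median was 0.44, against 0.0047 over all genes. On deposited values the counts were 13 higher and 4 lower (1742 and 5508 of all genes), with a median of 0.29 against -0.20 over all genes. Without the arrays of low spread they were 24 and 3, with a median of 0.52. Doses and times of the 2 experiments are not given, so the labels do not make them equal.

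The difference was 1.52 ± 0.22 for Rrs1 (effect of 0.15 in tumours and -1.37 in cells on this scale), with an adjusted p of 2.51e-06 in limma. It was 1.43 ± 0.14 for Ltv1 (0.04 and -1.39), 1.40 ± 0.19 for Gar1 (-0.06 and -1.47), 1.37 ± 0.16 for Wdr12 (0.09 and -1.28) and 1.21 ± 0.16 for Nhp2 (0.07 and -1.14). For each of these 5 genes the cultures fell, and the effect in tumours lay between -0.06 and 0.15. In the other direction were Bop1 at -0.61 ± 0.19 (0.13 in tumours and 0.74 in cells), with an adjusted p of 0.012 in limma, Ubtf at -0.47 ± 0.16 (-0.06 and 0.40), with an adjusted p of 0.025, and Ncl, which lies below the background level. Bop1 lost its call after centring each array on its median (adjusted p = 0.13, limma). Ubtf lost it with all probe sets averaged (adjusted p = 0.23, limma), in the fit of all 6 groups (0.069), without treated cell replicate 1 (0.0998) and without control cell replicate 3 (0.063). Without that last array, only 1 gene of the list was lower in this test.

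**Figure D3:**
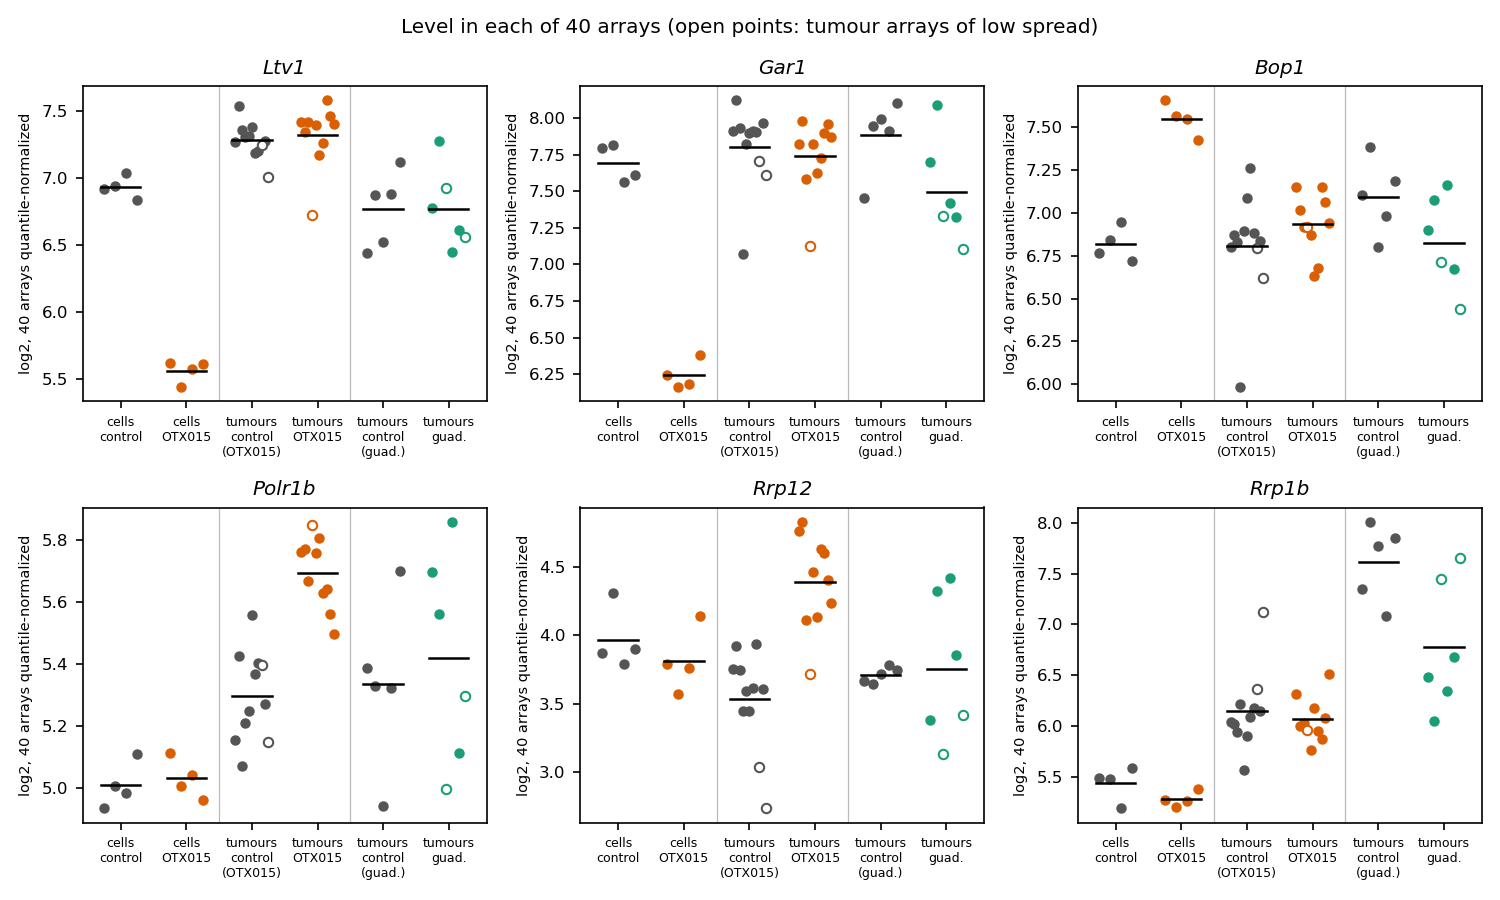
Level (log2 after quantile normalization of all 40 arrays, vertical axis) of Ltv1, Gar1, Bop1, Polr1b, Rrp12 and Rrp1b in the 6 groups, 1 point per array, with black lines for means and open points for the 5 tumour arrays of low spread. Ltv1 and Gar1 are lowest in the 4 OTX015-treated cultures, Polr1b and Rrp12 are high in OTX015-treated tumours, and Rrp1b is high in untreated tumours of the guadecitabine experiment, with a mean of 7.61.

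Guadecitabine moved no gene of the list past the threshold. In limma 0 of 38 genes rose and 0 fell, as for all genes, of which 0% were called in either direction. At an unadjusted p under 0.05 in limma, 0 rose and 2 fell, against 673 and 340 of all 17097 genes. The median log2 difference was -0.10, against 0.04 over all genes. A negative difference was found for 28 of 38 genes, and for 6297 of all 17097 genes. Without the 2 guadecitabine arrays of low spread there were again 0 calls in the list, and the median turned to 0.06. Over the same tumours all 16 proliferation markers had negative differences, with a median of -0.29 and no call. The standard errors of the list ran from 0.10 to 0.38, wider than the 0.07 to 0.18 of the cell comparison, so a change of the size of that of Npm1 in cells (0.23) may not be detectable with these arrays.

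Rrp1b, a nucleolar factor that binds chromatin and takes part in 60S assembly, had the smallest p of the list. It measured 7.43, 8.02, 7.76, 7.20 and 7.88 in the untreated tumours and 6.43, 6.20, 7.21, 6.51, 6.90 and 7.41 in the treated ones. The difference was -0.89 ± 0.23 with an adjusted p of 0.56 in limma, and 4 of 6 treated values were below every control. The treated arrays nearest the controls were replicates 3 and 6, both of low spread. When all 6 groups were fitted together after quantile normalization, the difference of -0.84 passed (adjusted p = 0.036, limma). Without replicates 3 and 6 the difference was -1.15 (adjusted p = 0.17, limma). The other probe set of Rrp1b differed by -0.30 in this comparison.

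The remaining named genes also missed the threshold. Nop56 ran from 9.74 to 10.2 in untreated and from 9.09 to 9.80 in treated tumours, a difference of -0.40 ± 0.14 (adjusted p = 0.74, limma). Rrp9 ran from 5.86 to 6.50 in untreated and from 6.29 to 6.79 in treated tumours, and Rrn3 from 5.42 to 6.10 and from 5.47 to 6.62. Their differences were 0.27 and 0.32, and the groups overlapped in both genes. The nuclear-retained RNAs ran from 6.67 to 8.43 in untreated and from 5.29 to 8.35 in treated tumours, and their part in these values was not tested.

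Untreated tumours and untreated cells were also compared, with the same 4 control cultures in both comparisons. Here the direction of the list turned with the scaling, and the counts over all genes moved with it. In the tumours of the OTX015 experiment, 11 genes were higher and 5 lower after quantile normalization, while 22.0% of all genes were higher and 20.1% lower. On deposited values the split was 6 and 11 (3721 and 5024 of all genes). After centring on the median it was 3 and 16 (2262 and 5823 of all genes). In the tumours of the guadecitabine experiment, 12 genes were higher and 4 lower, while 11.5% of all genes were higher and 23.1% lower. The other scalings gave 7 and 8 on deposited values (1359 and 4434 of all genes). After centring they gave 3 and 12 (991 and 6062 of all genes). The quantile-normalized medians were 0.04 and 0.02. The alternatives gave -0.25 and -0.35 in the first case and -0.18 and -0.28 in the other. Over all genes the medians were 0.02 and -0.08 after quantile normalization, 0.01 and -0.07 on deposited values, and -0.08 and -0.17 after centring. Without the arrays of low spread, 11 genes were higher and 4 lower in the first case and 12 and 5 in the other.

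Called in the same direction in both comparisons and all 3 scalings were Ubtf, which was higher in tumours, and Ddx10 and Wdr12, which were lower. Ubtf ran from 6.85 to 7.05 in cells, from 7.43 to 8.16 in untreated tumours of the OTX015 experiment and from 7.83 to 8.17 in those of the guadecitabine experiment, with no overlap between cells and tumours. Its differences were 0.78 ± 0.11 and 1.03 ± 0.13 in that order. Wdr12 ran from 7.75 to 8.03 in cells and lower in both tumour groups, with differences of -0.37 ± 0.10 and -0.73 ± 0.12. With all its probe sets averaged, the difference of Wdr12 in the guadecitabine experiment was 0.01 and did not pass (adjusted p = 0.96, limma). Its other probe set lies below the background level, with deposited means of 3.41 in control cells and 3.88 in the untreated tumours of that experiment. Ddx10 differed by -0.30 ± 0.12 and -0.73 ± 0.13. Its call in the OTX015 experiment had an adjusted p of 0.048 in limma and was lost under 19 of 29 alternatives, including the one that left out the low-spread arrays (adjusted p = 0.087).

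Rrp1b separated the experiments most. It ran from 5.27 to 5.66 in cells, from 5.64 to 7.19 in untreated tumours of the OTX015 experiment and from 7.15 to 8.07 in those of the guadecitabine experiment. The differences from cells were 0.70 ± 0.19 and 2.16 ± 0.22, with adjusted p-values of 0.0060 and 1.84e-07 in limma. After centring on the median the former difference was 0.29 and did not pass (adjusted p = 0.11, limma). In the nuclear-retained RNAs, all 3 were higher than in cells in the guadecitabine experiment, with a median of 1.74, and 1 of 3 was lower in the OTX015 experiment. Their part in the level of Rrp1b was not tested. Nop56 lay on opposite sides of the cells in the tumour groups, at -0.35 ± 0.11 and 0.60 ± 0.12. The difference between the experiments themselves was not tested. Fbl, Grwd1, Wdr43, Polr1a, Polr1b, Utp20 and Nolc1 were called higher in both after quantile normalization, though not in every scaling. The differences of Fbl were 0.71 and 0.66, and the latter no longer passed after centring on the median (adjusted p = 0.14, limma).

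Within the tumours, the level of the list varied between arrays of a group. Its quantile-normalized mean ran from 6.59 to 6.83 on the 5 arrays of low spread and from 6.66 to 7.23 on the other 27, and the deposited mean of the proliferation markers from 6.72 to 7.87 and from 7.80 to 8.74. The lowest values on the other arrays belonged to untreated replicate 4 of the OTX015 experiment, with 6.66 for the list and 7.80 for proliferation. On that array Gar1 was 7.07, Dkc1 7.04 and Bop1 5.98, below all 10 other untreated tumours of that experiment. Nop14 at 6.93 and Nle1 at 5.74 lay above all 10, so the genes of the list did not all lie low there. Cultured cells varied less, with an SD of the list's mean of 0.0084 in controls against 0.13 to 0.18 in the 4 tumour groups.

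**Figure D4:**
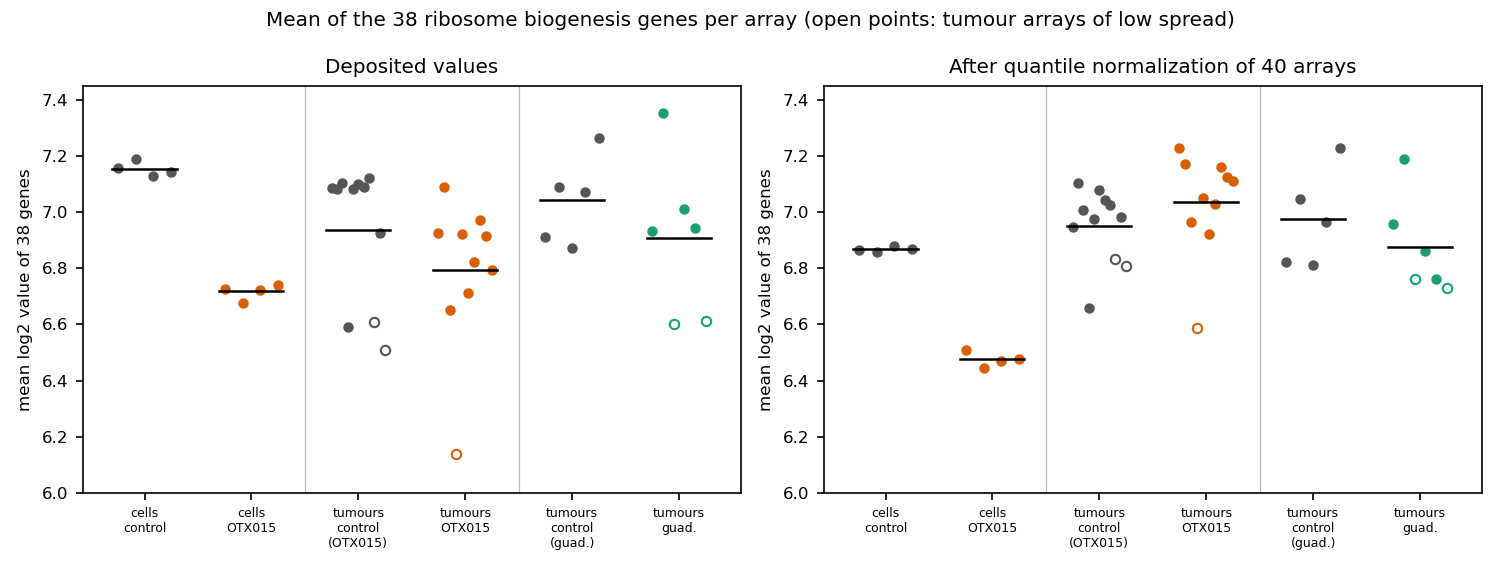
Mean log2 value of the 38 genes on each array (vertical axis) in the 6 groups, as deposited and after quantile normalization of all 40 arrays, with black lines for group means and open points for the 5 tumour arrays of low spread. The treated cultures lie below the controls in both scalings (6.68 to 6.74 against 7.13 to 7.19 as deposited), whereas the tumour groups overlap.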

How the data were processed

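The deposited table holds log2 values of 45141 probe sets on 40 Affymetrix 3′ arrays, 1 per sample, made by the authors with Transcriptome Analysis Console and RMA (from the submitters' processing notes). Arrays have no read depth, so their number limits precision. The sources used here do not give the sets of arrays on which RMA was run. Probe sets were named through GEO's platform annotation (28898 with 1 gene, 551 with several, 15692 with none). Comparisons were fitted with limma 3.58.1 (R 4.3.3; lmFit, eBayes, two-sided) on the arrays of each experiment, with Benjamini-Hochberg adjustment over 17097 genes, and were tested on simulated data first. Comparisons with OTX015 tumours or between experiments used quantile normalization of all probe sets. Genes given with every value were the 8 largest called falls and up to 4 rises in cells, called genes in OTX015 tumours, the 2 smallest p-values per direction for guadecitabine, and the 5 largest per direction elsewhere. Other genes of each list were named by smallest p in cells. The members and lists were chosen with earlier results of these data known. The labels name no pairing by replicate number, and the main fits used none. Deviations of same-numbered arrays correlated at -0.15 to 0.15 in cells, -0.54 to 0.43 in OTX015 tumours and -0.44 to 0.04 in guadecitabine tumours. They were not set against those of differently numbered arrays, so a pairing stays unknown. Alternatives covered scaling, dim genes, probe sets, variance model, fit, thresholds, replicate block and left-out arrays, and the fit without arrays of low spread was added after seeing the data.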

Additional observations from a re-analysis of the deposited data

Results flagged for a closer look

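In a check of 40 sets of values from groups of 4 to 10 arrays, 2 held an array that stood apart from the rest, about as many as the 1 in 20 that chance gives. In OTX015-treated cells, Nhp2 was lowest in replicate 2 at 8.184, while the nearest array was at 8.436 and the farthest at 8.48. The mean of the 38 genes was lowest in OTX015-treated tumour replicate 4 at 6.461 (values normalized over the 21 tumours of that experiment), while the nearest was at 6.795 and the highest at 7.102. That tumour array is one of those of low spread.

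The effect of OTX015 differed between tumours and cells by a test of the difference in limma (tumours minus cells, log2). It was higher in tumours for Rrs1 (1.5208), Ltv1 (1.4269), Gar1 (1.4045), Wdr12 (1.3694) and Nhp2 (1.2062), and lower for Bop1 (-0.6086) and Ubtf (-0.4659). Neither of the lower ones held under every alternative.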

How the results depend on the processing

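Counts below are members of the list, higher then lower, unless a median log2 difference is named. For deposited and median-centred counts, those over all genes stand with the comparisons above. For counts at 1.5-fold they follow in brackets. For the other alternatives no share over all genes is given, so those counts describe the list only. The 23 falls in cells became 14 with a change of at least 1.5-fold (1967 of all genes) and stayed within 1.5 times of 23 otherwise. The 4 rises became 2 in the fit of all 6 groups, 2 at an adjusted p under 0.01 and 1 with a 1.5-fold change (1365 of all genes). The median of -0.43 in cells moved to -0.37 with quantile normalization, -0.46 when dim genes were left out, -0.35 when probe sets of a gene were averaged and -0.35 in the fit of all 6 groups. In OTX015 tumours the deposited values gave 1 and 8 with the median reversed to -0.17, and a 1.5-fold change left 1 higher (75 of all genes). In guadecitabine tumours the fit of all 6 groups gave 1 lower gene, Rrp1b. For the difference of effects, deposited values gave 13 higher with a median of 0.29, and an adjusted p under 0.01 left 0 lower. A 1.5-fold change left 13 and 1 (1807 and 1441 of all genes).

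For untreated tumours of the OTX015 experiment against cells, deposited values gave 6 and 11 (median reversed to -0.25) and median centring 3 and 16 (-0.35). An adjusted p under 0.01 gave 7 and 1, and a 1.5-fold change 5 and 0 (1138 and 1606 of all genes). For the guadecitabine experiment, deposited values gave 7 and 8 (-0.18) and median centring 3 and 12 (-0.28). An adjusted p under 0.01 left 2 lower and a 1.5-fold change 2 lower (2096 of all genes). Wdr12 turned to 0.0108 there with the mean of probe sets, where the other probe set lies below the background level. The cause of these shifts was not tested.

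Leaving out each array in turn gave 3 to 5 rises, 23 to 25 falls and medians of -0.46 to -0.40 in cells. It gave 3 to 4 rises, 0 falls and 0.03 to 0.12 in OTX015 tumours, and 0 calls and -0.19 to -0.02 in guadecitabine tumours. The difference of effects kept 19 to 22 higher, 1 to 3 lower (1 without control cell replicate 3) and 0.42 to 0.48. Untreated tumours of the OTX015 experiment gave 7 to 12 higher (7 without control cell replicate 3), 2 to 6 lower (2 without control cell replicate 1, 3 without control cell replicate 3 or 4 or untreated tumour replicate 9) and 0.01 to 0.08. Those of the guadecitabine experiment gave 10 to 12 higher, 3 to 8 lower (8 without untreated tumour replicate 5) and -0.06 to 0.07. The labels do not say whether replicate numbers pair samples. With the replicate number as a block, the counts were 5 and 23 in cells and 3 and 0 in OTX015 tumours. They were 0 and 0 with guadecitabine, and 22 and 4 for the difference of effects.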

Other observations

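The genes that make the other RNA and protein parts of the ribosome gave further values in OTX015-treated cells. Among ribosomal protein genes, Rpl3 fell by 0.63, Rpl14 by 0.96 and Rpsa by 0.59. Of the RNA polymerase III list, Gtf3c3, a subunit of the factor that recognises tRNA promoters, fell by 1.41 and the polymerase subunit genes Polr3e and Polr3d by 0.64 and 0.49. In OTX015-treated tumours Polr3e was higher by 0.48 (adjusted p = 0.0038, limma), and the difference of its effects (tumours minus cells) was 0.99. Exosc3 and Exosc8, subunits of the RNA exosome, fell by 1.02 and 0.80 in cells and did not pass in OTX015 tumours (0.36 and 0.05).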
